A study of Mus musculus with 10 samples.

Results

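The EGF receptor family comprises here 10 genes, 4 of them receptors (Egfr, Erbb2, Erbb3 and Erbb4) and 6 of them ligands (Hbegf, Areg, Tgfa, Egf, Btc and Ereg). They were matched by gene symbol among the 55401 genes of the deposited count table, and each symbol had 1 row. The family was selected on the counts of Egfr in stressed and naive mice. Egfr passed the filter and was part of the fit over all genes, but its values are given as a description, no p is printed for it and no support is drawn from its call. In all, 5 biological replicates each came from naive C57BL/6 female mice and from female mice of the same strain and age (3 months) after 6 days of sub-chronic variable stress (SCVS). Every replicate pooled cells of 3 to 4 meninges, digested in the presence of actinomycin D, an inhibitor of transcription, and sorted as living CD45- CD31+ podoplanin+ cells, the gate for meningeal lymphatic endothelial cells (LECs).

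ErbB receptors are tyrosine kinases of the plasma membrane that signal as pairs. A ligand with an EGF-like domain is made as a membrane protein, is cut free by a metalloproteinase, and brings receptors together, after which the RAS-MAPK and PI3K-AKT pathways are switched on. Egfr binds the ligands listed here, and Erbb2 has no known ligand and serves as a partner. Erbb3 has a weak kinase and binds neuregulins, and Erbb4 binds neuregulins and some of the EGF-like ligands. In lymphatic vessels, EGF receptor signalling has been linked to growth and sprouting.

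The total count was 9984743 to 14094155 per replicate, so that 3 counts, used below as the floor of detection, correspond to 0.213 to 0.3005 CPM (counts per 1000000 counts of the replicate). This floor covers counting error only. The marker genes of the gate were not found in every replicate. Naive replicate 1 had 0 CPM of Prox1 and of Pdpn, the gene of podoplanin, and its 9 lymphatic endothelial markers summed to 74.4 CPM, against 195.6 CPM in naive replicate 5, 1068 to 2929 CPM in the other naive replicates and 470.6 to 3243 CPM in the SCVS replicates. Lyve1 was under the floor in naive replicates 1 and 5, and Prox1 was under the floor in naive replicate 1 and SCVS replicate 5. Naive replicate 5 had 21.5 CPM of Pecam1, the gene of CD31, against 536 to 1119 CPM in the other replicates, and its 10 pan-endothelial markers summed to 885 CPM, against 4982 to 10545 CPM elsewhere. The same replicate had the highest sum of the 10 neuronal markers, 2356 CPM. The 8 blood endothelial markers summed to 5219 to 10273 CPM in all replicates apart from naive replicate 5, where they summed to 313 CPM. The fold changes and levels of the members are given also without naive replicates 1 and 5.

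Sequence upstream of the annotated start is shown for 2 receptors, Egfr, which had reads almost only in naive replicates, and Erbb2, which had reads in both groups. Both genes lie on chromosome 11, Egfr at chr11:16752203-16913907 and Erbb2 at chr11:98412484-98437716 (GRCm38.p6, RefSeq). The 250 bases before each start are chr11:16751953-16752202 for Egfr and chr11:98412234-98412483 for Erbb2, plus strand, 5′ to 3′. Capitals mark matches to the GC box letters GGGCGG on either strand.

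Egfr: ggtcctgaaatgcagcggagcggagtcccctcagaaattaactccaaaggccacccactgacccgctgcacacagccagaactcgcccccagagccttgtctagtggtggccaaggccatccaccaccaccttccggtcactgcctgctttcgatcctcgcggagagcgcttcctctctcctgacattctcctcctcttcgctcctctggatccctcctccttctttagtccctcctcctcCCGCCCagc
Erbb2: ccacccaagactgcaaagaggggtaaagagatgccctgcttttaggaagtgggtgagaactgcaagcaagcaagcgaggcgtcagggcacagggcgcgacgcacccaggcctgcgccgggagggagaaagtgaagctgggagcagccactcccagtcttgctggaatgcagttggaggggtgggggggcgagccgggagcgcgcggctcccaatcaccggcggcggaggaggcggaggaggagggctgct

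The Egfr window held 1 GC box match and the Erbb2 window none, whereas 32.7% of 32851 windows of this length in the same RefSeq table held at least 1. The TATA box letters TATAAA were in neither window and in 12.4% of all windows, both strands searched. GC content was 60.8% for Egfr and 66.0% for Erbb2, against a median of 52.4% over all windows. These matches describe the letters of the window and their relation to the counts was not tested.

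Of the 10 members, 5 had more than 5 counts in at least 3 replicates and entered the test over 14815 genes, namely Egfr, Erbb2, Erbb3, Hbegf and Tgfa. The other 5, Erbb4, Areg, Egf, Btc and Ereg, did not. By the quasi-likelihood test of edgeR, adjusted after Benjamini and Hochberg, none of the 4 tested members apart from Egfr was called at an adjusted p under 0.1, nor was Egfr, and 0% of all tested genes were called. At an unadjusted p under 0.05 there were 460 of the tested genes. DESeq2 with default settings called Egfr, none of the other 4 and 0.769% of all tested genes. Nothing is read from that call, because the counts of Egfr chose the family. No tested member had groups that were apart in CPM, as 0.628% of tested genes had. These are bulk samples, in which fewer cells of a type and less RNA per cell cannot be told apart.

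Egfr is a receptor of EGF, TGF-alpha and the other ligands listed here. Its counts in naive replicates 1 to 5 were 456, 236, 284, 1 and 14. In SCVS replicates 1 to 5 it had 0, 1, 0, 0 and 0 counts. Naive replicates 1 to 3 were high, naive replicate 5 was far below them, and naive replicate 4 had the same count as SCVS replicate 2, so that the groups overlapped in counts. The mean was 16.7 ± 17.8 CPM in the naive group and 0.0164 ± 0.0367 CPM under SCVS (SD, n = 5 per group), at least 68.04-fold lower in SCVS when 3 counts per replicate are taken as the floor. Without naive replicates 1 and 5 the naive mean was 13.0 ± 11.2 CPM (SD, n = 3) and the bound was 52.7-fold. In that subset Egfr had more than 5 counts in only naive replicates 2 and 3 and did not pass the filter. The RefSeq genes Gm39584 and Egfros overlap Egfr, and Egfros had at most 1 count in any replicate.

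Erbb2, the partner receptor without a ligand of its own, was found in both groups. Its counts were 246, 72, 77, 638 and 0 in naive replicates 1 to 5. In SCVS replicates 1 to 5 they were 6, 148, 12, 280 and 2. The groups overlapped, with naive replicate 5 and SCVS replicate 5 lowest. CPM averaged 16.4 ± 19.3 in the naive group and 6.98 ± 9.39 under SCVS (SD, n = 5 per group). The fitted log2 fold change was −1.28, its standard error 1.78 and its adjusted p 1.0 (edgeR). Single replicates moved this value, to −0.41 without naive replicate 4 and to −2.41 without SCVS replicate 4, and it was −1.48 without naive replicates 1 and 5. Mien1, a gene with 896 to 2867 counts per replicate, overlaps Erbb2, and the use of strand in counting is not given in the sources used here.

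Erbb3, the neuregulin receptor with a weak kinase, had reads in few replicates. Its counts were 0, 14, 0, 224 and 11 in naive replicates 1 to 5. In SCVS replicates 1 to 5 they were 0, 117, 376, 0 and 2. Naive replicate 4 and SCVS replicates 2 and 3 held nearly all of the counts, and the groups overlapped. CPM averaged 3.69 ± 7.18 in the naive group and 8.06 ± 13.2 under SCVS (SD, n = 5 per group). The fitted log2 fold change was 1.15, its standard error 2.42 and its adjusted p 1.0 (edgeR). Without SCVS replicate 3, which held 50.5% of all Erbb3 counts, the log2 fold change was −0.73. Without naive replicate 4 it was 4.03, and without naive replicates 1 and 5 it was 0.50. Erbb4, a neuregulin receptor known from neurons and heart muscle, had at most 1 count in any replicate and was under the floor in all 10.

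The receptors thus came in different combinations. More than 3 counts of both Egfr and Erbb2 were found in naive replicates 1, 2 and 3, with Erbb3 as well in naive replicate 2. Erbb2 with Erbb3 but without Egfr was found in naive replicate 4 and in SCVS replicates 2 and 3. SCVS replicates 1 and 4 had Erbb2 alone, with 6 and 280 counts. Naive replicate 5 had Egfr with Erbb3, at 14 and 11 counts, and SCVS replicate 5 had no receptor above the floor.

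**Figure D1:**
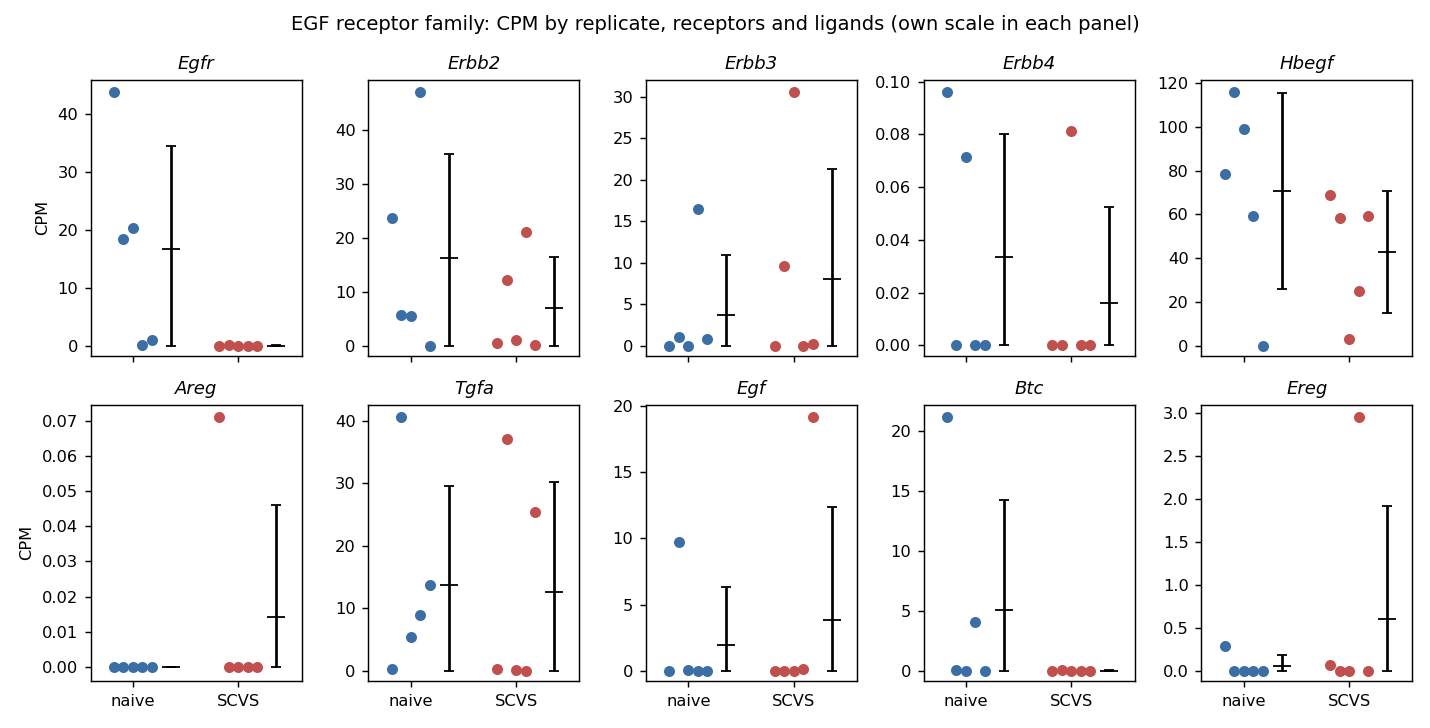
CPM of each member in naive (blue) and SCVS (red) replicates, each point a replicate in the order of its number, with the mean and SD beside it (the lower arm of the SD stops at 0) and a scale of its own in each panel. Egfr is at 18.5 to 43.8 CPM in naive replicates 1 to 3 and at most 0.0822 CPM in every SCVS replicate, with naive replicates 4 and 5 at 0.0737 and 1.05 CPM. The groups of all 5 tested members overlap.

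Hbegf, heparin-binding EGF-like growth factor, a ligand of Egfr and Erbb4 that many cells switch on early after a stimulus, was the most widely detected ligand. Naive replicates 1 to 5 gave 816, 1478, 1386, 805 and 0 counts of it. In SCVS replicates 1 to 5 it had 972, 711, 35, 328 and 593 counts. Naive replicate 5, the replicate with the lowest pan-endothelial marker sum, was the lowest of the 10, and SCVS replicate 3 was next. CPM averaged 70.5 ± 44.8 in the naive group and 42.9 ± 28.0 under SCVS (SD, n = 5 per group). The fitted log2 fold change was −0.78, its standard error 1.22 and its adjusted p 1.0 (edgeR). Without naive replicate 5 the log2 fold change was −1.10 (standard error 0.72), and without naive replicates 1 and 5 it was −1.14 (standard error 0.81), neither of them called.

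Tgfa, transforming growth factor alpha, a ligand of Egfr, varied widely within both groups. Its counts were 3, 517, 76, 121 and 183 in naive replicates 1 to 5. In SCVS replicates 1 to 5 they were 4, 451, 2, 0 and 254. Naive replicate 2 and SCVS replicate 2 were the highest of their groups, and the ranges of the groups nearly coincided. CPM averaged 13.8 ± 15.7 in the naive group and 12.6 ± 17.5 under SCVS (SD, n = 5 per group). The fitted log2 fold change was −0.22, its standard error 1.84 and its adjusted p 1.0 (edgeR). Its sign turned when naive replicate 2 was left out (0.71), and also without SCVS replicate 1, 3 or 4 (0.12, 0.095 and 0.10). It was −1.04 without SCVS replicate 2, −0.72 without SCVS replicate 5, −0.51 without naive replicate 1 and −0.61 without naive replicates 1 and 5.

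The other ligands were above the floor in 2 replicates or fewer. Egf, the founding ligand of the family, had 124 counts in naive replicate 2, 191 counts in SCVS replicate 5 and at most 2 elsewhere. Btc, betacellulin, a ligand of Egfr and Erbb4, had 220 counts in naive replicate 1, 55 in naive replicate 4 and at most 1 in the other 8 replicates. Both replicates with Btc were naive, so that the naive group averaged 5.05 ± 9.15 CPM (SD, n = 5) and the SCVS group was at least 20.5-fold lower, with 3 counts per replicate as the floor. Without naive replicates 1 and 5 this bound was 5.597-fold. It did not pass the filter and was not tested. Ereg, epiregulin, had 39 counts in SCVS replicate 4 and at most 3 elsewhere, and Areg, amphiregulin, had 1 count in SCVS replicate 1 and 0 in the other 9. Epgn, a further ligand of Egfr that is not a member, had 0 counts in all replicates.

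Between genes, levels were compared as CPM per kb of exon, with exon lengths from an mm9 annotation that is not that of the counts, averaged over the 10 replicates. Hbegf was highest, with 23.9 ± 16.1 CPM per kb (SD, n = 10), and Tgfa followed with 3.50 ± 4.17. Erbb2 had 2.24 ± 2.91, Erbb3 0.976 ± 1.71, Btc 0.906 ± 2.38, Egfr 0.740 ± 1.31 and Egf 0.607 ± 1.35 CPM per kb. Ereg (0.0799), Areg (0.00592) and Erbb4 (0.00201 CPM per kb) were lowest. Hbegf exceeded Tgfa in 9 of 10 replicates, by 20.4 ± 15.0 CPM per kb (SD, n = 10), and without naive replicates 1 and 5 in 8 of 8, by 21.8 ± 13.5 CPM per kb (SD, n = 8). For the other 8 pairs of neighbours in this order the SD of the difference within replicates was larger than its mean, so that their order was within the spread. The lower order differed by group. Egfr had 1.48 CPM per kb in the naive and 0.00145 in the SCVS group, Btc had 1.81 and 0.00588, and Erbb3 had 0.613 and 1.34 CPM per kb. Hbegf had 29.7 and 18.1, Tgfa 3.66 and 3.35, and Erbb2 3.14 and 1.34 CPM per kb in the naive and the SCVS group. Without naive replicates 1 and 5 the mean of Egf (0.759) stood above those of Egfr (0.430) and Btc (0.188 CPM per kb). Hbegf was the highest member per kb in 8 of 10 replicates, Tgfa in naive replicate 5 and Erbb3 in SCVS replicate 3.

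**Figure D2:**
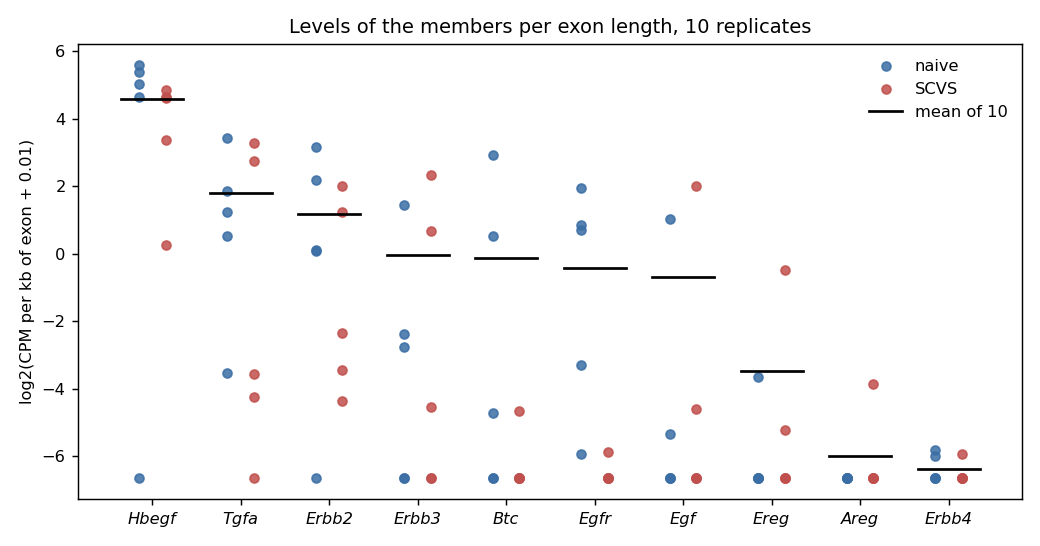
Level of each member as log2(CPM per kb of exon + 0.01) in naive (blue) and SCVS (red) replicates, with the mean of the 10 replicates as a bar, ordered by that mean. Hbegf stands highest at 23.9 CPM per kb on average, 9 of its 10 points lie above 0 on this scale, and most points of Ereg, Areg and Erbb4 lie on the lowest line, which is 0 counts.

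Uneven detection was a feature of the members as of the table. Over the 10 genes and 10 replicates there were 38 values above the floor, with 3 to 6 members per replicate, 6 of them in naive replicate 2 and 3 in 4 of the 5 SCVS replicates and in naive replicate 5. Of the 5 tested members, 3 had 0 counts in a naive replicate and at least 100 in another (34.8% of all tested genes), and 2 did so among the SCVS replicates (32.5% of all tested genes). The coefficient of variation over the 10 replicates was 0.672 for Hbegf and 1.19 to 1.77 for the other 4, against a median of 0.928 over all tested genes. The highest value was that of Egfr. This median was not matched for level. By mean CPM, Hbegf stood at percentile 75.7 of the tested genes and the other 4 at percentiles 22.7 to 38.7. Over the 10 replicates, in each of which all members come from the same library, Pearson's r of log2(CPM + 1) between the tested members lay between −0.42 and 0.48 for the 10 pairs. Erbb2 with Hbegf had the highest value and Egfr with Erbb3 the lowest. Without naive replicates 1 and 5 the range was −0.57 to 0.60.

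Markers of other cell types varied between replicates, and their part in these values was not tested. The 12 fibroblast markers, all of them above the floor in at least 1 replicate, summed to 60.5 to 1921 CPM in naive and 35.2 to 1666 CPM in SCVS mice, and 10 of the 12 had a lower mean in SCVS. In the 3 replicates with more than 100 Egfr counts this sum was 1078, 1921 and 852 CPM. In naive replicates 4 and 5 it was 458.9 and 60.5 CPM, and in SCVS replicates 1 to 4 it was 35.2 to 188 CPM. SCVS replicate 5 stood apart, with 1666 CPM of these markers, of which Dcn made up 1159 CPM, and 0 counts of Egfr. The 10 mural cell markers also had lower means in SCVS, 10 of 10, and summed to 7844, 1280, 823, 3796 and 5078 CPM in naive replicates 1 to 5. They summed to 1154, 5944, 3293, 3087 and 442 CPM in SCVS replicates 1 to 5. Of the 7 replicates with at most 14 Egfr counts, 5 had mural sums above those of naive replicates 2 and 3. In those 5, Rgs5 alone made up 2999 to 5812 CPM, and in naive replicates 1 to 3 it had 5664, 427 and 673 CPM. Acta2, another of these markers, had 1525.5, 506 and 47.9 CPM in naive replicates 1 to 3. In naive replicates 4 and 5 it had 14.8 and 20.7 CPM, and in the SCVS replicates 1.59 to 84.7 CPM. Pdgfra, a defining gene of fibroblasts, had 27.4 CPM in naive replicate 1 and at most 1.30 CPM in all other replicates. Col1a1 had 50.0, 455.5, 112, 137 and 0 CPM in naive replicates 1 to 5, and 2.84 to 53.9 CPM in SCVS replicates. Col3a1 had 147, 309, 41.2, 0.0737 and 4.65 CPM in naive replicates 1 to 5, and 0 to 14.6 CPM in SCVS replicates. Dcn and Pi16 had a higher mean in SCVS, with 284 against 248 CPM and 2.87 against 0.595 CPM.

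For Erbb3, which Schwann cells and melanocytes express, the 11 markers of these cells summed to 57.9 CPM in SCVS replicate 3, the replicate with the most Erbb3 counts. In naive replicate 4 and SCVS replicate 2, the next in Erbb3 counts, the sum was 768 and 182 CPM. In naive replicate 5, with 11 counts of Erbb3, it was 1438 CPM, of which Mbp, a myelin gene, made up 1245 CPM. Sox10, a defining factor of these cells, had 26.3, 6.12 and 70.2 CPM in SCVS replicate 3, naive replicate 4 and SCVS replicate 2. It had 48.0 CPM in naive replicate 5. Naive replicate 1 and SCVS replicate 4, both with 0 counts of Erbb3, had 27.4 and 28.6 CPM of Sox10. Tyr, a defining gene of melanocytes, had 0 counts in every replicate, and 8 of the 11 markers were above the floor in at least 1 replicate. The sum ranged from 76.5 to 1438 CPM in naive and from 57.9 to 1099 CPM in SCVS mice. For Erbb2, which epithelial cells express, the 9 arachnoid barrier and epithelial markers summed to 593, 89.6, 93.7, 1165 and 1999 CPM in naive replicates 1 to 5. The sum was 111, 1194, 517, 700.4 and 255 CPM in SCVS replicates 1 to 5. The 4 replicates with over 10 CPM of Erbb2 had 593 to 1194 CPM, and naive replicate 5, with the highest sum, had 0 counts of Erbb2.

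For Hbegf, the 10 pan-endothelial markers, all above the floor in at least 1 replicate, summed to 885 to 10545 CPM in naive and 4982 to 10242 CPM in SCVS mice. Leukocyte markers were highest in SCVS replicate 4, at 5422 CPM, the replicate with the 39 counts of Ereg. Cd74 and H2-Aa made up 3384 and 1365 CPM of that sum. Ptprc, the gene of CD45, had 8.54 CPM there and was highest in SCVS replicate 5, at 40.5 CPM. The neuronal markers summed to 13.3 to 2356 CPM, with Erbb4 under the floor throughout. The 2 lowest pan-endothelial sums, 885 and 4982 CPM, belonged to naive replicate 5 and SCVS replicate 3, which also had the fewest Hbegf counts. SCVS replicate 5, with a pan-endothelial sum of 5614 CPM, had 593 counts of Hbegf. The lymphatic endothelial sum was highest in SCVS replicate 3, at 3243 CPM. It was lowest in naive replicate 1, at 74.4 CPM, where Hbegf had 816 counts. The relation of Hbegf to these sums was not tested.

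**Figure D3:**
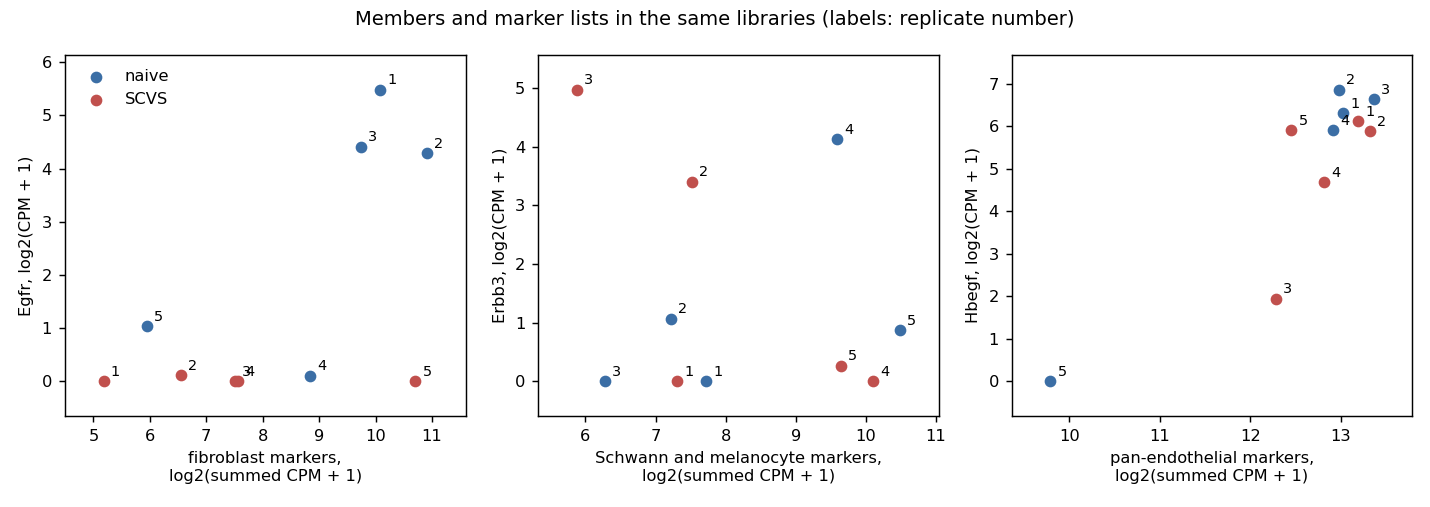
Egfr against fibroblast markers, Erbb3 against Schwann and melanocyte markers, and Hbegf against pan-endothelial markers, each axis log2 of the CPM or summed CPM plus 1, a point per replicate labelled with its number (naive blue, SCVS red). SCVS replicate 5 combines 1666 CPM of fibroblast markers with no Egfr, and naive replicate 5 combines 885 CPM of pan-endothelial markers with no Hbegf.

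The 5 tested genes with the pattern most like that of Egfr, by Pearson's r of log2(CPM + 1) over the 10 replicates, were Hspa1a (0.97), 1110019D14Rik (0.97), Zfp937 (0.96), Mmp23 (0.96) and Gm11266 (0.95). Hspa1a, an inducible heat shock protein, gave 309, 267, 140, 0 and 44 counts in the naive replicates and 0 in every SCVS replicate. Its near-identical copy Hspa1b can share its reads, so the count of Hspa1a alone is uncertain. Hspa1b had 38, 149 and 43 counts in naive replicates 1, 2 and 5, 65 and 59 in SCVS replicates 2 and 4, and 0 elsewhere. Mmp23, a matrix metalloproteinase, was found in naive replicates 1 to 3 alone (133, 311 and 364 counts). All 5 genes had their highest counts among naive replicates 1 to 3 and at most 1 count in any SCVS replicate, the same replicates that set the values of Egfr. The genes were picked for their likeness to Egfr over these replicates, so this follows from the choice and nothing is read from it. Spearman's rho was 0.79 to 0.90 for the 5 genes, and none of them was among the first 5 by that measure.

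The other genes of ErbB signalling were taken from lists by role, 86 genes in all, of which 77 were tested. None of the 77 was called in either direction in edgeR, none had groups apart in CPM, and none had an unadjusted p under 0.05. Of all 14815 tested genes, 0% were called, 0.628% had groups apart, and 460 had an unadjusted p under 0.05. Socs5 had the largest log2 fold change of the 77, 1.81, with a standard error of 0.83 and an unadjusted p of 0.0501 (edgeR). Their median log2 fold change was 0.07, with 44 higher and 33 lower in SCVS, against −0.03 over all tested genes. Without naive replicates 1 and 5 the median was −0.0078 over the 76 that were then tested. Of these 77 genes, 44 (57.1%) had more than 3 counts in all 10 replicates, as did 38.1% of all tested genes and none of the 5 tested members.

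Among the other EGF-like ligands, 1 of 5 was tested. This was Nrg1, a neuregulin that binds Erbb3 and Erbb4, with 2.15 ± 4.23 CPM in the naive group and 6.61 ± 13.7 CPM under SCVS (SD, n = 5 per group). Of the genes of ligand shedding, 9 of 10 were tested, with a median log2 fold change of 0.35, 7 higher and 2 lower. Adam10, a metalloproteinase that cuts Egf and Btc free, was the most abundant of them in CPM, with 103.5 ± 58.8 CPM in the naive group and 162 ± 70.0 CPM under SCVS (SD, n = 5 per group; log2 fold change 0.60, standard error 0.49).

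All 29 adaptors and effectors were tested, 15 of them higher and 14 lower, and their log2 fold changes had a median of 0.03. Of the genes of inhibition and receptor turnover, 25 of 26 were tested, with a median of 0.09, 15 higher and 10 lower. The most abundant in CPM was Dusp6, a phosphatase that dampens signalling downstream of the receptors, with 170 ± 133 CPM in the naive group and 166 ± 62.5 CPM under SCVS (SD, n = 5 per group; log2 fold change −0.09, standard error 0.55).

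Of the early transcriptional targets, 13 of 16 were tested, with a median log2 fold change of −0.17, 6 higher and 7 lower. Klf6, a zinc finger factor of the early response, was the most abundant in CPM, with 264 ± 202 CPM in the naive group and 306 ± 90.9 CPM under SCVS (SD, n = 5 per group; log2 fold change 0.19, standard error 0.65). The adjusted p of every tested gene of these 5 lists was 1.0 in edgeR.

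**Figure D4:**
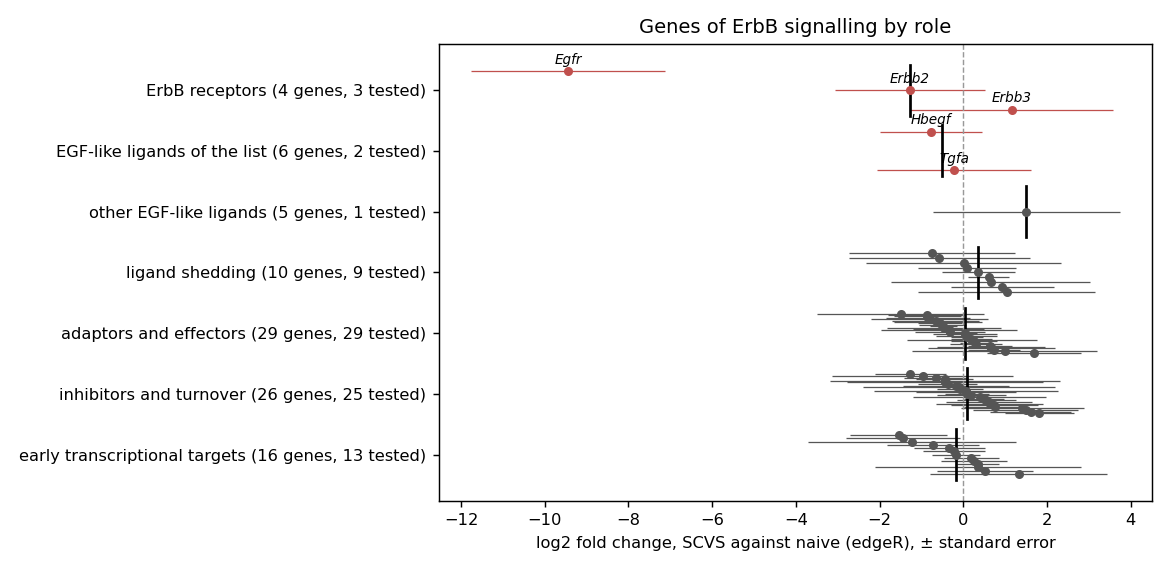
Log2 fold change in SCVS against naive mice with its standard error (edgeR) for each tested gene of ErbB signalling, grouped by role, with the median of each group as a vertical bar, members in red and other genes in grey. The members other than Egfr lie between −1.28 and 1.15 and the 77 other genes between −1.55 and 1.81, whereas Egfr is drawn as a description at −9.44, a size that depends on the prior count because SCVS replicates had at most 1 count.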

How the data were processed

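RNA of sorted meningeal LECs was amplified by the authors with a whole-transcriptome kit, sequenced as paired ends, trimmed, aligned with Hisat2 2.0.1 and counted per gene. The deposited values are raw counts, 1 per gene and replicate. The study's text names mm9, the submitters' processing notes name GRCm38, cutadapt 1.9.1 and HTSeq 0.6.1, and the annotation release and use of strand are not given in the sources used here. Gene coordinates are those of RefSeq on GRCm38.p6, and exon lengths those of GENCODE M1 on mm9. The gene identifiers of the counts go beyond those of GENCODE M1, so the exon lengths come from another annotation release than the counts.

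A gene entered the test when 3 or more of the 10 replicates had over 5 counts of it. The test was that of edgeR 4.0.16 (quasi-likelihood, TMM, R 4.3.3), with Benjamini-Hochberg adjustment over all tested genes and a threshold of 0.1. CPM are counts per 1000000 of the column total. The standard error is the absolute log2 fold change divided by the square root of F. Alternatives were DESeq2 1.42.0, limma 3.58.1 with voom, other scalings and filters, a replicate block and leaving out replicates. Leaving out naive replicates 1 and 5 together was added after the counts had been seen. The edgeR, DESeq2 and limma fits were run on simulated counts with known changes, and recovery of these changes was required only at a low spread. The descriptive steps were not part of that simulation. Members, pathway lists and markers were chosen with earlier results of these data known. Genes named are all members, the most abundant gene by CPM of each pathway list (that of the adaptors and effectors is not reported here), and the 5 genes most correlated with Egfr, with any others chosen after their values were seen. Labels do not say which cohort a replicate came from.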

Additional observations from a re-analysis of the deposited data

Results flagged for a closer look

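In 5 of 13 groups of replicates with more than 3 counts of a member, the highest replicate stood far from the rest by Dixon's criterion for 5 values, which chance meets in about 1 of 20 groups of normally spread values. Of the groups of all genes with more than 3 counts in a replicate, 40.6% met it, so the members do not stand out by this count. Erbb3 had 16.5 CPM in naive replicate 4 and at most 1.10 CPM in the other naive replicates. Egf had 9.71 CPM in naive replicate 2 and 19.1 CPM in SCVS replicate 5, with at most 0.0716 and 0.151 CPM in the rest of those groups. Btc had 21.1 CPM in naive replicate 1, followed by 4.05 CPM in naive replicate 4. Ereg had 2.95 CPM in SCVS replicate 4, from 39 counts, and at most 0.071 CPM in the other SCVS replicates. The cause of these single high replicates was not tested.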

How the results depend on the processing

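The number of called genes was 0 in edgeR and stayed 0 with other scalings and filters and when any replicate, or naive replicates 1 and 5 together, was left out, for all tested genes, for the members and for the 77 other genes of ErbB signalling. DESeq2 called 114 genes with default settings and 123 without its Cook filter, of which 1 was a member each time (Egfr), and limma with voom called 3, none a member. No other ErbB signalling gene was called by any of these tools. With the replicate block, edgeR called 0 genes, and the log2 fold change was −0.99 for Erbb2, 0.42 for Erbb3, −0.79 for Hbegf and −1.87 for Tgfa. The numbers mark pools of different animals and for that reason were not taken as pairs. The correlation of same-numbered replicates lay between −0.00891 and 0.133. Even so, 4 of 5 naive replicates correlated best with the SCVS replicate of their own number, a hint at a link that the design does not give. The log2 fold change of Erbb3 was −0.048 in limma and −0.73 to 4.03 when a replicate was left out, and that of Tgfa was −2.08 in limma and −1.04 to 0.71 when a replicate was left out. Of the 5 genes most like Egfr, 0 were among the first 5 by Spearman's rho. Egfr did not pass the filters of at least 10 counts in at least 5 replicates, or of the main fit without naive replicates 1 and 5. Members with few counts are limited by depth and by the spread between replicates.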
